A study of Mus musculus with 2 samples.

Results

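Naive-like CD8 T cells were 166 of the 16731 cell barcodes deposited from spleen samples that had been sorted for CD4 and Foxp3. They were chosen by counts of unique molecular identifiers (UMIs, tags that let each captured RNA molecule be counted once). A barcode counted when it held at least 500 genes and at most 10% mitochondrial counts, at least 2 UMIs of Cd3d, Cd3e and Cd3g together, and at least 2 of Cd8a and Cd8b1 together with at least 1 of them from Cd8b1. It also had to hold at most 2 UMIs of Ikzf2, a gene of regulatory T (Treg) cells, at most 1 of the B cell gene Cd79a, and fewer than 3 of the cytotoxic genes Ccl5 and Nkg7 together. The study compared Foxp3YFP-Cre Kmt2d+/+ mice (+/+ below) with Foxp3YFP-Cre Kmt2dfl/fl mice (fl/fl below), with 1 droplet library of RNA 3' ends per genotype. Sorted cells from 3 mice went into each library. Both genotypes carry the Foxp3YFP-Cre allele, which puts Cre and a yellow fluorescent protein under Foxp3, so this allele does not separate them. They differ in the floxed Kmt2d, a gene for a histone H3 lysine 4 methyltransferase. Cre is made where Foxp3 is active, and whether Kmt2d was recombined in CD8 T cells was not measured. The labels used here give neither the age of the mice nor the exons that were floxed.

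With 1 library per genotype there is no replicate error, so no test was made and every difference between genotypes describes these libraries only. Intervals are 95% and cover counting error only. Levels are UMIs of a gene per 1000000 UMIs of the summed cells (CPM). They compare a gene between groups of cells, and no level is compared between genes.

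Naive CD8 T cells are mature T cells that have not yet met the peptide that their receptor recognises on MHC class I. They recirculate through lymphoid organs with the help of the chemokine receptor Ccr7, live on signals through the interleukin-7 receptor, and are kept quiescent by transcription factors such as Lef1, Tcf7, Klf2 and Foxo1. After activation they switch on granzymes, Ccl5, Nkg7 and receptors of the killer-cell lectin family.

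The +/+ library held 67 such cells among 7790 barcodes past the filters, a share of 0.860% (exact binomial interval 0.667 to 1.09), and the fl/fl library held 99 of 8634, or 1.15% (0.933 to 1.39). The sort was for CD4+ cells, and how much it let through can set both shares. Of all cells with these CD3 and CD8 counts, whatever their Ccl5 and Nkg7, they made up 26.9% (21.5 to 32.9, of 249 cells) and 29.6% (24.7 to 34.8, of 335). Both pairs of intervals overlap. The cells summed to 474351 UMIs in +/+ and 686092 in fl/fl, with medians of 6693 and 6338 UMIs and 2267 and 2169 genes per cell. One fl/fl cell held 42410 UMIs, while the deepest +/+ cell held 14973. The 2 libraries shared 15 deposited barcodes, none of them among these cells.

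The label was checked first against the CD8 markers. Cd8b1 (ENSMUSG00000053044, GRCm38 chromosome 6, 71322788 to 71337494, plus strand) and Cd8a (ENSMUSG00000053977, chromosome 6, 71373427 to 71379173, plus strand) encode the 2 chains of the CD8 coreceptor and lie side by side. They were part of the rule, so their levels are a description. Cd8b1 stood at 512 CPM in +/+ cells and at 593 in fl/fl cells, and Cd8a at 251 and 246 CPM. The median cell held 5 UMIs of the pair in each library, from 2 to 12 in +/+ and from 2 to 15 in fl/fl. Cells were thus mostly well past the limit, although 11 and 13 of them sat on it with 2 UMIs, and 85 and 52 barcodes stayed outside with 1.

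Dapl1 (ENSMUSG00000026989, chromosome 2, 59484653 to 59505020, plus strand), a gene known from naive and early-memory CD8 T cells, was not part of the rule. Dapl1 was seen in 52.2% of +/+ cells and in 45.5% of fl/fl cells, and in 31.3% (20.6 to 43.8) and 29.3% (20.6 to 39.3) after every cell was thinned to 2500 UMIs. B cells, which should lack it, gave 0.197% in +/+ and 0 of 1214 cells in fl/fl after the same thinning, which allows up to 0.303%. The median depth of those B cells was 5036 and 4465 UMIs. CD8 T cells with at least 3 UMIs of Ccl5 and Nkg7, otherwise chosen by the same rule and called cytotoxic CD8 T cells below (182 in +/+ and 236 in fl/fl), gave 21.0% and 11.9%. CD4 T cells (at least 1 Cd4 UMI, none of Cd8a or Cd8b1) without a UMI of Ikzf2, Foxp3, Il2ra, Ctla4 or Tnfrsf4 (265 and 263), called CD4 T cells without Treg markers, gave 24.6% and 21.1%. Dapl1 was therefore seen in a minority of the thinned naive-like cells, and CD4 T cells held it as well.

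**Figure D1:**
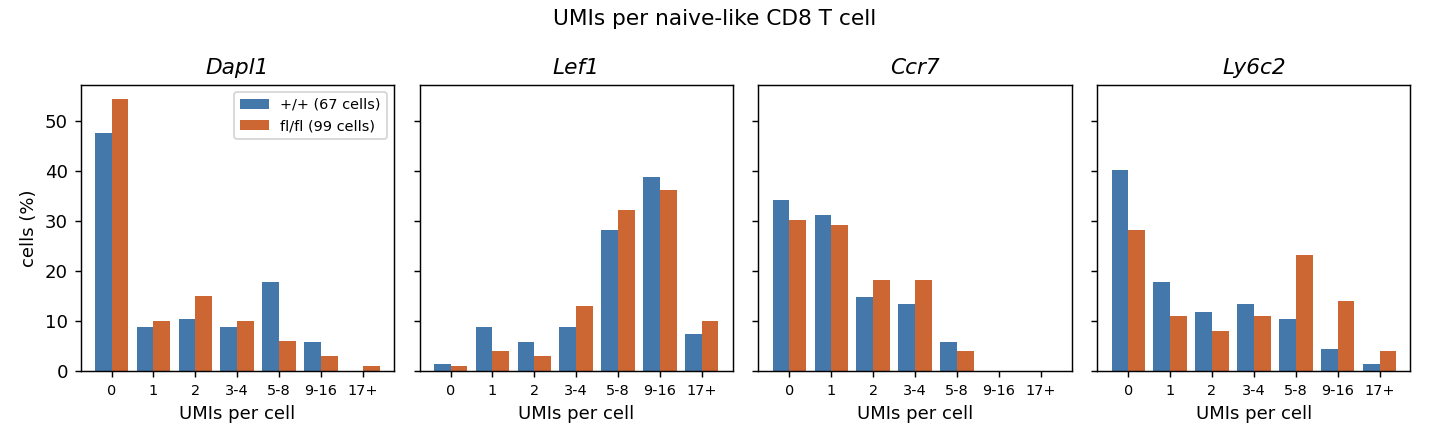
Share of naive-like CD8 T cells (percent, vertical axis) with each number of UMIs of Dapl1, Lef1, Ccr7 and Ly6c2 (horizontal axis), for 67 +/+ cells in blue and 99 fl/fl cells in orange. Most cells held several Lef1 UMIs, while the bar at 0 is the tallest for Dapl1 in both libraries.

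Of the genes of naive T cells, Lef1 was seen in most of these cells and Ccr7 in a smaller share. Lef1 is a transcription factor downstream of Wnt signals that marks naive and memory-precursor T cells. It was found in 89.6% (79.7 to 95.7) of thinned +/+ cells and 93.9% (87.3 to 97.7) of fl/fl cells, against 3.16% and 5.52% of B cells. CD4 T cells without Treg markers came close, with 84.8% and 89.3%, and cytotoxic CD8 T cells gave 68.5% and 64.8%. Lef1 was thus not particular to the naive-like CD8 T cells. Ccr7 was found in 38.8% and 42.4% of naive-like cells. Cytotoxic CD8 T cells held it in 23.2% and 17.4%, and CD4 T cells without Treg markers in 34.5% and 29.1%. Cd44, a surface receptor that rises on memory T cells, was found in 7.46% (2.47 to 16.6) and 3.03% (0.629 to 8.60) of naive-like cells and in 16.6% and 25% of cytotoxic CD8 T cells.

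Markers of other cells were scarce, apart from the Treg and B cell lists, which gave UMIs in most cells. Foxp3, the factor that defines the sorted Treg cells, had no UMI in either group of cells (0 of 67 allows a share with a UMI of up to 5.36%, 0 of 99 up to 3.66%). This limits cells with a UMI and not cells that express the gene, since CD4 T cells with at least 3 Ikzf2 UMIs held a Foxp3 UMI in only 20.4% and 19.4%. Cd4 was seen in 10.4% of +/+ cells (7 of them) and in 6.06% of fl/fl cells (6), and in 5.97% and 2.02% after thinning, when B cells gave 0.197% and 0.0824%. The summed Treg marker list, of 9 genes with Foxp3 at 0, was at 417 CPM in +/+ cells and at 239 in fl/fl cells. It had a UMI in 49 of 67 and 66 of 99 cells. Cytotoxic CD8 T cells gave 198 and 223 CPM, and CD4 T cells with at least 3 Ikzf2 UMIs 5151 and 4577 CPM. The list of 13 B cell genes was at 228 and 299 CPM, with a UMI in 53 and 81 cells and with Ms4a1 and Ebf1 among those at 0 in both. The NK cell, dendritic cell and erythroid or platelet lists each held at most 3 UMIs per library. Gamma-delta and innate-like T cell genes gave 0 and 7 UMIs, the latter in 2 cells, neutrophil genes 16 and 9 UMIs, monocyte or macrophage genes 30 and 29, and thymocyte genes 12 and 17.

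RNA of B cell genes was present in the gate and its genes differed in direction between the libraries. Ighm, the most counted of them, was at 183 CPM in +/+ and at 165 in fl/fl, and Cd79b at 12.6 and 13.1 CPM. Igkc, the kappa light chain constant gene, was at 12.6 CPM in +/+ and at 84.5 in fl/fl naive-like CD8 T cells. B cells (at least 2 Cd79a UMIs and none of Cd3d, Cd3e or Cd3g) made up 6.60% of barcodes past the filters in +/+ and 14.7% in fl/fl. The part of B cell RNA in any other difference below was not tested.

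Within each library the naive-like cells stood apart from cytotoxic CD8 T cells in a wide set of genes. The rule itself split these groups on Ccl5 and Nkg7, so the comparison is a description. A gene is called here when its CPM ratio is at least 1.5 either way with an interval that excludes 1 in both libraries. Of 5482 genes at 20 CPM or more in either group in both libraries, 61 were higher in the naive-like cells (1.11%) and 198 were lower (3.61%). The higher genes were led by Igf1r, the receptor for insulin-like growth factor 1, at 73.8 against 11.6 CPM in +/+ and 52.5 against 13.2 CPM in fl/fl. Next were Slc28a2b, a nucleoside transporter gene, with log2 ratios of 2.17 and 1.87, and Trib2, a pseudokinase gene, with 1.57 and 1.63. Actn1, which encodes alpha-actinin and is high in naive T cells, had log2 ratios of 1.21 (0.90 to 1.51) and 1.14 (0.83 to 1.45). Selenop, Maml3, Patj, Als2cl, Fancc and Abca1 complete the 10 genes of highest ratio.

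Among the 10 genes of lowest ratio were genes of killing and of NK-type receptors. Gzma, the granzyme A gene, was at 4.22 CPM in naive-like and 618 CPM in cytotoxic +/+ cells, and at 4.37 and 922 CPM in fl/fl cells. Gzmb, the granzyme B gene, was at 0 against 139 CPM in +/+ and 1.46 against 146 CPM in fl/fl. Klrc1, Klrc2, Klrg1 and Klrk1, which encode lectin-like receptors of NK and memory CD8 T cells, had no UMI in the naive-like cells of either library. Their levels in the cytotoxic cells were between 23.3 (Klrc2) and 99.9 CPM (Klrc1) in +/+ and between 29.8 (Klrg1) and 136 CPM (Klrc1) in fl/fl. Dapk2, Smpdl3b, Wdr95 and Klre1 were the others of the 10 lowest. Not every lectin-like receptor gene lacked UMIs in the naive-like cells. Klrd1, which encodes the CD94 chain that pairs with the products of Klrc1 and Klrc2, stood at 291 and 245 CPM there. Its level in the cytotoxic cells is not given here.

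The naive-like cells were set against CD4 T cells without Treg markers in the same way. Of 5365 genes compared, 80 were higher in the naive-like CD8 T cells (1.49%) and 68 were lower (1.27%) in both libraries. Ccr9, the receptor for the gut chemokine Ccl25, was at 75.9 against 2.00 CPM in +/+ and 64.1 against 4.33 CPM in fl/fl. Itgae, which encodes the CD103 integrin chain that binds E-cadherin, was at 44.3 against 2.00 CPM in +/+ and 42.3 CPM against no UMI in fl/fl. Klrd1 had log2 ratios of 4.13 (3.51 to 4.81) and 3.55 (2.97 to 4.17), and Ly6c2, a Ly6C surface protein gene, 3.84 and 4.32. Adgrg5, Bend4, Lcn4, Plac8, Fam241a and Tm6sf1 were also among the 10 highest.

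Among the lineage factors, Runx3, which establishes the CD8 lineage, stood at 154 CPM in +/+ and at 171 in fl/fl naive-like cells against 42.6 and 43.3 CPM in CD4 T cells without Treg markers. Zbtb7b, which encodes ThPOK, the factor of the CD4 lineage, was at 10.5 and 1.46 CPM against 30.6 and 36.1 CPM. Runx3 was thus higher and Zbtb7b lower in the CD8 T cells than in those CD4 T cells. Runx1, which is active in both lineages, was lower too, at 245 and 168 CPM against 510 and 454 CPM. Igfbp4, an insulin-like growth factor binding protein gene high in naive CD4 T cells, was lower in the CD8 T cells, at 67.5 against 247 CPM and 91.8 against 309 CPM. The 10 genes of lowest ratio against CD4 T cells were Chn2, Tesc, St8sia6, Nebl, Pdlim4, S100a6, Ly6c1, Ifitm3, Myo10 and Tmem64. Tesc, which encodes the calcium-binding protein tescalcin, was at 12.6 against 138 CPM in +/+ and 8.75 against 124 CPM in fl/fl. The sequence of Ly6c1 is close to that of Ly6c2, and reads of the pair could be divided wrongly.

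The naive-like cells also varied among themselves. In cells thinned to 2500 UMIs, the variance of a gene's UMIs over the cells divided by their mean is near 1 when only counting separates the cells, and its median over 2926 genes was 0.956. Genes were ranked by the lower of their 2 library values. Malat1, a nuclear RNA, came first with 6.34 in +/+ and 5.37 in fl/fl, and the cytoskeleton gene Actb second with 6.39 and 4.42. Ifi27l2a, an interferon-inducible gene, gave 3.36 and 3.32, and Ly6c2 gave 2.32 and 2.58. Tmsb4x, Bcl2, Tpt1, Nfkbia, Smc4 and Junb complete the first 10, and Dapl1 was rank 11 with 2.89 and 1.92. Bcl2, which blocks apoptosis, was seen in 25 of 67 and 47 of 99 thinned cells, with up to 7 and 11 UMIs in 1 cell.

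Cells with and without a Dapl1 UMI were set side by side, bearing in mind that detection follows depth (medians of 7545 and 5824.5 UMIs in +/+, 6426 and 5885 in fl/fl). Lef1 was at 1218 CPM in +/+ cells with Dapl1 and 1111 CPM in those without, and at 1524 and 1093 CPM in fl/fl. Ly6c2 was at 293 and 343 CPM in +/+ and at 826 and 508 CPM in fl/fl. In fl/fl the intervals did not overlap for either gene, and both were the higher in cells with Dapl1. In +/+ they overlapped, at 232 to 365 and 267 to 433 CPM for Ly6c2 and 1090 to 1357 and 971 to 1266 CPM for Lef1. No order was read there.

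The genotypes were then compared within the naive-like cells. Kmt2d (ENSMUSG00000048154, chromosome 15, 98831669 to 98871204, minus strand) was at 71.7 CPM (34 UMIs) in +/+ and 61.2 CPM (42 UMIs) in fl/fl, a log2 ratio of -0.23 (-0.91 to 0.47). Tags of 3' ends do not report a deletion elsewhere in the gene, so this level checks nothing about the floxed allele. P2rx7, the ATP-gated channel gene, had 2 UMIs in each library, too few for a ratio to be read.

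Of 6089 genes reaching 20 CPM in 1 library or both, with the genes of the rule left out, 397 (6.52%) had a CPM ratio of at least 1.5 with an interval excluding 1. Of these, 158 were higher in fl/fl (2.59%) and 239 lower (3.93%). When the libraries were scaled to the median ratio over genes instead, 202 were higher and 185 lower, so the excess of lower genes follows the scaling. The ratio alone, with no interval, was passed by 9.15% of genes upward and 13.7% downward. The median log2 ratio of all genes measured was -0.06. A 95% interval alone leaves up to 5% of equal genes outside it, and 9.53% of genes lay outside it here. Among the 1706 genes with at least 100 UMIs in both libraries together, 4.63% were called, 35 higher (2.05%) and 44 lower (2.58%). Cytotoxic CD8 T cells gave 6.26% by the same rule and CD4 T cells without Treg markers 5.37%.

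**Figure D2:**
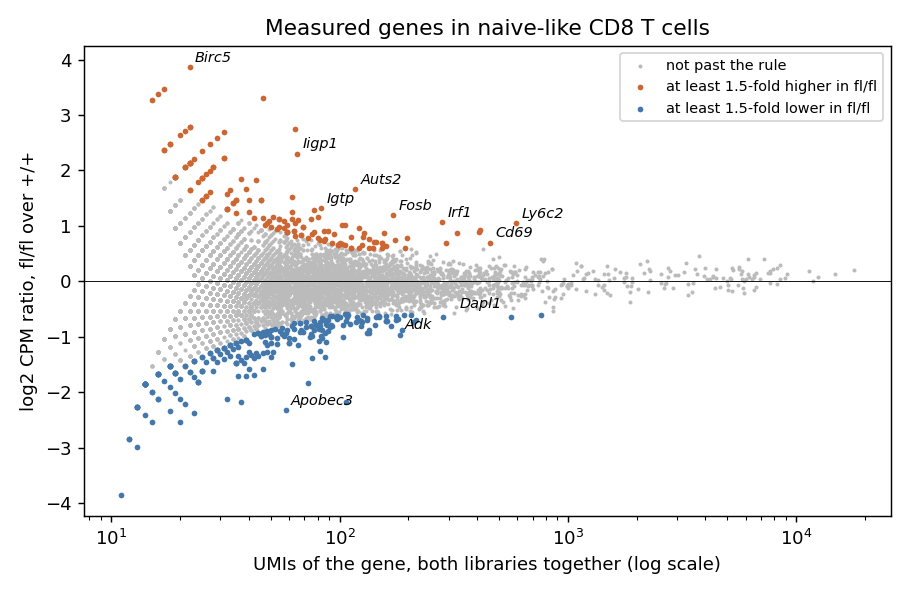
Each point is 1 of the genes measured in naive-like CD8 T cells with UMIs in both libraries, by its UMIs in both libraries together (horizontal, log scale) and its log2 CPM ratio of fl/fl over +/+ (vertical). Orange and blue points passed the rule of size. The spread of the ratios narrows as UMIs rise, and Ly6c2, at 1.05, stands apart among genes of like UMIs.

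The genes of highest ratio had few UMIs and often came from 1 cell. The 12 genes named by rank were H2ac8, Hist1h2ap, Xcl1, Alcam, Ccdc50, Rrm2, Ttll4, H1f5, Pafah1b3, Uhrf1, Phyh and Pclaf. Xcl1, which encodes a chemokine for cross-presenting dendritic cells, had no UMI in +/+ and 19 UMIs in 8 fl/fl cells, at least 4.38-fold higher when +/+ is set at 3 counts per library. Alcam, an adhesion receptor gene, had none in +/+ and 18 in 4 fl/fl cells, 12 of them in 1 cell. Ttll4, a tubulin-modifying ligase gene, had none in +/+ and 16 UMIs in 15 fl/fl cells, and Pafah1b3 none and 14 in 13 cells. The spread over cells was thus wide for Ttll4 and Pafah1b3 and narrow for Alcam.

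H2ac8, Hist1h2ap, Rrm2, H1f5, Uhrf1 and Pclaf are genes of DNA replication and histone supply. In fl/fl, 1 cell held 21 of 24 UMIs of H2ac8, 16 of 16 of Rrm2, 14 of 14 of H1f5 and 42 of 43 of Pclaf. It was the cell with 42410 UMIs, which also held the 12 Alcam UMIs, and it held 217 of the 347 UMIs (62.5%) of 17 cell cycle genes in the fl/fl group. Of the 13 measured genes of the cell cycle list, 6 were called higher (46.2%, beside 2.59% of all genes) and none lower, with a median log2 ratio of 0.69. Without the cells with 10 or more UMIs of the 17 genes, an alternative added after the data were seen that leaves out 1 cell per library, that median was 0.04 and the numbers of called genes were 138 higher and 236 lower. Tuba1b, a tubulin gene, then went from 0.74 to 0.09 and Stmn1, a microtubule regulator gene, from 1.29 to -0.20, while Hmgb2, a chromatin protein gene, stayed at 0.72 after 0.88. The cell cycle difference was thus mostly that of 1 cell.

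**Figure D3:**
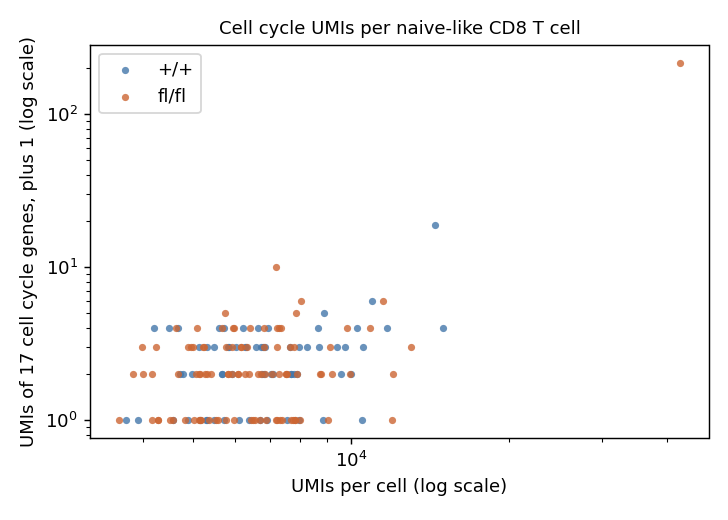
UMIs of 17 cell cycle genes per cell plus 1 (vertical, log scale) by the cell's total UMIs (horizontal, log scale) for 67 +/+ cells in blue and 99 fl/fl cells in orange. One fl/fl cell with 42410 UMIs and 217 cell cycle UMIs lies far from the rest.

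The 12 genes of lowest ratio, among them Metrn, Zkscan17, Rhob, Il2ra, Sc5d, Cd40lg, Vac14, Apobec3, Capg, G2e3 and Dpp3, were spread over more cells. Metrn, a secreted neurotrophic factor gene, had 10 UMIs in 10 +/+ cells and 1 UMI in fl/fl, a log2 ratio of -3.85 with an interval as wide as -9.29 to -1.04. Cd40lg, the CD40 ligand of helper T cells, had 18 and 5 UMIs. Il2ra, which encodes the interleukin-2 receptor chain CD25 of Treg cells, had 12 UMIs in 6 +/+ cells and 3 in 3 fl/fl cells. One +/+ cell held 6 of the 12 and also 3 Cd4 UMIs. The +/+ cell with 2 Il2ra UMIs held Cd4 too, as did 1 with a single Il2ra UMI. The Treg marker list was at 417 CPM in +/+ and at 239 in fl/fl, of which Il2ra itself gave 25.3 and 4.37 CPM. Every other member of the list was also higher in +/+, except Foxp3 with no UMI in either. Among them, Ikzf2 was at 73.8 and 35.0 CPM, Izumo1r at 61.1 and 27.7, and Cd4 at 33.7 and 10.2. The part of Treg RNA in Il2ra was not tested. Apobec3 alone of these 12 had more than 20 UMIs in either library.

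Interferon response genes went in both directions. Of 37 measured members, 6 were higher in fl/fl (Iigp1, Igtp, Irf1, Ly6a and Ifi206 among them) and 4 were lower (Apobec3, Ifi208, Isg15 and Slfn5), or 27% beside 6.52% of all genes. The list's median log2 ratio was 0.19 beside -0.06 for all genes, 26 members lay above 0 and 11 below, and over the alternatives the median lay between 0.17 and 0.48. Summed over the list the level was 4088 CPM in +/+ and reached 4622 in fl/fl, and no single cell held more than 7.32% of its UMIs. Ifit1 (0.27), Ifit3 (0.43), Rtp4 (0.25) and Bst2 (0.04), genes of the classic type I interferon signature, did not pass the rule.

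Irf1 (ENSMUSG00000018899, chromosome 11, 53770014 to 53778374, plus strand), a transcription factor induced by interferon gamma, was at 148 CPM (115 to 186) in +/+ and 309.0 CPM (269 to 354) in fl/fl. It had 70 and 212 UMIs in 37 and 70 cells, and the ratio was 2.09-fold (log2 1.07, 0.67 to 1.48). It did not rest on a few cells, since without the top cell of each library the log2 ratio was 1.09. Among the 19 and 31 cells without any UMI of Ccl5 or Nkg7 it was 2.09. Igtp, an interferon-inducible GTPase gene of the defence against intracellular parasites, was at 37.9 and 94.7 CPM (1.32, 0.55 to 2.16). Iigp1, of the same GTPase family, had 8 UMIs in 5 +/+ cells and 57 in 22 fl/fl cells (2.30, 1.23 to 3.58). Ly6a, which encodes the surface protein Sca-1, was at 82.2 and 140 CPM (0.77), and Ifi206, a DNA sensor family gene, at 90.7 and 147 CPM (0.70). In thinned cells Igtp was at 1.94 and Iigp1 at 1.44.

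Among other genes of the list that encode GTPases, Gbp4 (0.66), Gbp7 (0.65), Irgm1 (0.47) and Ifi47 (0.32) had intervals that include 0, and Gbp2 was at -0.18. Genes of antigen presentation on MHC class I, which interferons also induce, gave 2 called members of 15 (13.3%, beside 6.52% of all genes), both higher. These were Tap1, a subunit of the peptide transporter, at 54.8 and 99.1 CPM (0.85, 0.18 to 1.57), and H2-M3, a class Ib molecule for formylated peptides, at 29.5 and 70.0 CPM (1.25, 0.36 to 2.22). The list's median was 0.11, with B2m at 0.21 (0.09 to 0.34), H2-K1 at 0.07 and H2-D1 at -0.06.

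**Figure D4:**
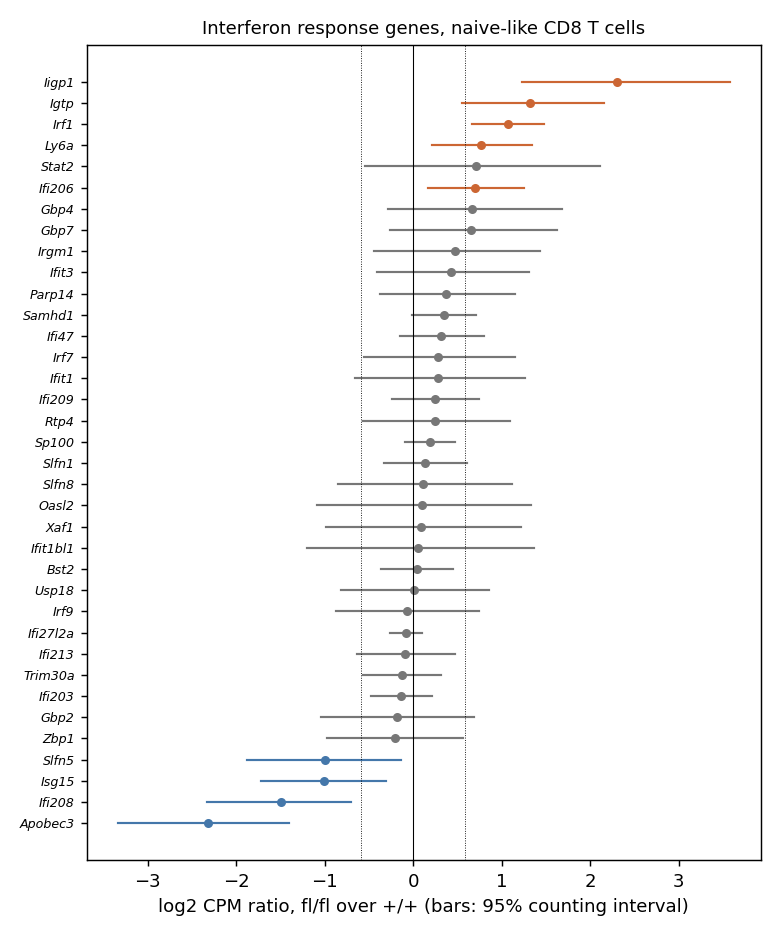
Log2 CPM ratio of fl/fl over +/+ (horizontal) for 36 of the 37 measured interferon response genes in naive-like CD8 T cells, with 95% counting intervals as bars and dotted lines at a 1.5-fold ratio. Iigp1 lies highest at 2.30 and Apobec3 lowest at -2.32, with most genes between the dotted lines.

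Apobec3 (ENSMUSG00000009585, chromosome 15, 79891659 to 79915906, plus strand), a cytidine deaminase that restricts retroviruses, was the lowest member. It had 45 UMIs in 32 +/+ cells and 13 UMIs in 11 fl/fl cells, or 94.9 CPM (69.2 to 127) and 18.9 CPM (10.1 to 32.4), with a log2 ratio of -2.32 (-3.34 to -1.41). The same ratio was -2.54 in cytotoxic CD8 T cells, -2.11 in CD4 T cells without Treg markers, -3.02 in CD4 T cells with at least 3 Ikzf2 UMIs (Ikzf2-high CD4 T cells) and -3.79 in B cells. It was thus low in fl/fl in every group of cells looked at here, all from the same 2 libraries. Ifi208, a neighbour of Ifi206 in the DNA sensor family, was at 86.4 and 30.6 CPM (-1.50, -2.33 to -0.71), and in the other 4 groups between -0.67 and -3.60. Isg15, a ubiquitin-like modifier, was at 90.7 and 45.2 CPM (-1.0, -1.72 to -0.30), and Slfn5 at 61.1 and 30.6 CPM (-1.0, -1.88 to -0.14). In cells without any UMI of Ccl5 or Nkg7 these log2 ratios were -2.22 for Ifi208, -0.34 for Isg15 and -0.07 for Slfn5, so the last pair stayed below 0 by little. Ifi206 and Ifi208 are close relatives, and the counting could have divided reads between them wrongly.

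The promoters of these genes were read for the 2 elements through which interferons act, since members went in both directions. The gamma-activated sequence, searched as TTCNNNGAA, which reads the same on both strands, is an element of the interferon gamma response, and the interferon-stimulated response element, searched as GAAA, any 2 bases and GAAA on both strands, is bound by ISGF3 and interferon regulatory factors. In the 250 bases before the start of each gene, from RefSeq on GRCm38.p6, the first was in 7.02% and the second in 2.98% of 32851 promoters. Of the 37 measured interferon genes 28 had a promoter in the table, 5 with the first element and 18 with the second. Printed below are the promoters of Irf1 and Igtp, which were higher in fl/fl, of Isg15, which was lower, and of Ifi206 and Ifi208, a related pair that differed in direction. Capitals mark the matches, and each sequence runs 5' to 3' toward the start of the gene.
Irf1 (chr11:53769764-53770013, plus strand): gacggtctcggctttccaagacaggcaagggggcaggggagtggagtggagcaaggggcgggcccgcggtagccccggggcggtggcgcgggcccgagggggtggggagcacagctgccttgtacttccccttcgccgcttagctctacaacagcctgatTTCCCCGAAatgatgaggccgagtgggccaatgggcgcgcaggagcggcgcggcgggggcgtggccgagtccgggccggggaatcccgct
Igtp (chr11:58199306-58199555, plus strand): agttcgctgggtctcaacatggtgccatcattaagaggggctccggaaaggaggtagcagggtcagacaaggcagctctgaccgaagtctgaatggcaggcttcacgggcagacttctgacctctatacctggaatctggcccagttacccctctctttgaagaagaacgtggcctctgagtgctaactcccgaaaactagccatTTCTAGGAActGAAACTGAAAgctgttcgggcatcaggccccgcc
Isg15 (chr4:156200819-156201068, minus strand): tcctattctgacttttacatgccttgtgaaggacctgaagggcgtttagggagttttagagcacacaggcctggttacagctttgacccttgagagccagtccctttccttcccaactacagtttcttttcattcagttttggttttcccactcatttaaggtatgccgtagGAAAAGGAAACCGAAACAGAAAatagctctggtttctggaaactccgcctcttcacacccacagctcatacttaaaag
Ifi206 (chr1:173491319-173491568, minus strand): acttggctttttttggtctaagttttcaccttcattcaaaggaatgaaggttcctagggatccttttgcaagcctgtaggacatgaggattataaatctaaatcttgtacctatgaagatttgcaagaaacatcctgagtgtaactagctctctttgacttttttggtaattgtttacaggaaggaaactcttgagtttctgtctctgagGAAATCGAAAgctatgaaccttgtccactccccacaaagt
Ifi208 (chr1:173673415-173673664, plus strand): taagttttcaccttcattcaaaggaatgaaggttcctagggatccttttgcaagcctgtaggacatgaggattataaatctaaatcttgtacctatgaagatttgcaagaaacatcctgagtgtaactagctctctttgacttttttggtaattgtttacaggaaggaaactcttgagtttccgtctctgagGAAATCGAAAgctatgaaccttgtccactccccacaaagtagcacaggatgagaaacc

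Irf1 held TTCCCCGAA at positions -90 to -82 from its start, in the first of its 2 listed promoters. Igtp held TTCTAGGAA at -45 to -37 and GAAACTGAAA at -34 to -25. Isg15 held 3 overlapping response elements between -78 and -57. Of the 6 genes called higher, 3 had a listed promoter, 2 with the gamma-activated sequence and 2 with the response element. All 4 genes called lower had one, none with the gamma-activated sequence and 4 with the response element. Ifi206 and Ifi208 have nearly the same promoter: 231 of 232 bases were identical at an offset of 18, and both hold GAAATCGAAA, although their ratios were 0.70 and -1.50. A match of letters is a description and shows no binding.

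Ly6c2 (ENSMUSG00000022584, chromosome 15, 75108158 to 75111970, minus strand) was the most highly counted gene among those higher in fl/fl. It encodes a Ly6C surface protein that interferons and memory differentiation raise on CD8 T cells. It had 149 UMIs in 40 of 67 +/+ cells and 446 UMIs in 71 of 99 fl/fl cells, or 314 CPM (266 to 369) and 650.1 CPM (591 to 713). The ratio was 2.07-fold (log2 1.05, 0.78 to 1.33), and 1.17 without the top cell of each library. After thinning, 43.3% (31.2 to 56.0) of +/+ and 61.6% (51.3 to 71.2) of fl/fl cells held a UMI, against 3.03% and 3.07% of CD4 T cells without Treg markers and 8.28% and 21.3% of B cells. The log2 ratio changed with the limit for cytotoxic genes, and was 3.16 among the few cells without any UMI of Ccl5 or Nkg7 (19 and 31 cells). Most of those +/+ cells held no Ly6c2 UMI and none held more than 3, so that ratio rests on few counts. The log2 ratio was 0.21 (0.11 to 0.30) in cytotoxic CD8 T cells, which held 968 and 1116 CPM, and 1.74 in B cells.

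Other memory and effector genes did not share a direction. Of 18 measured members of that list, 4 were higher (Xcl1, S100a4, Ctla2a and Ly6c2) and 3 lower (S100a6, Il2rb and Itga4), or 38.9% beside 6.52% of all genes, with a median log2 ratio of -0.12. Il2rb, the receptor chain for interleukin-2 and interleukin-15, was at 162 CPM (128 to 203) in +/+ and 84.5 CPM (64.2 to 109) in fl/fl (-0.94, -1.46 to -0.43). Itga4, the integrin alpha 4 chain, was at 312.0 and 200 CPM (-0.64, -0.99 to -0.30). Itgb7, the chain that pairs with it for homing to the gut, was at 207 and 136 CPM (-0.61, -1.03 to -0.18). Ctla2a, a cathepsin inhibitor gene, was at 33.7 and 72.9 CPM (1.11, 0.28 to 2.02). S100a4 and S100a6, calcium-binding protein genes of effector cells, came from very few cells: 23 of 24 fl/fl UMIs of S100a4 lay in 1 cell, and the 15 +/+ UMIs of S100a6 lay in 2 cells. Without cells holding a Cd4 UMI, S100a4 turned to -2.22. Eomes (0.52), Prf1 (0.11), Id2 (0.27) and Cd44 (-0.19) did not pass the rule, and 19 of the 37 listed genes were below 20 CPM in both libraries, granzymes among them.

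Genes of recent signalling showed 4 of 24 measured members (16.7%, beside 2.59% of all genes) higher and none lower, around a median of -0.05. Fosb, an AP-1 subunit, was at 84.3 CPM (60.2 to 115) in +/+ and 192 CPM (161 to 228) in fl/fl (1.19, 0.67 to 1.74, and 1.93 in thinned cells). Cd69, an early activation receptor that also holds T cells in tissue, was at 287 CPM (241 to 339) and 463 CPM (414 to 517), or 1.62-fold (0.69, 0.40 to 0.99). Nr4a2, an orphan nuclear receptor induced by receptor signals, was at 73.8 and 136 CPM (0.88, 0.30 to 1.48), and Irf4 at 14.8 and 36.4 CPM (1.30, 0.05 to 2.76). These genes were seen in 18 to 48 of the +/+ cells and in 41 to 81 of the fl/fl cells, Irf4 apart, with 6 and 18. Other genes of the same kind did not move with them: Fos was at 0.11, Jun at -0.10, Nr4a1 at -0.35 and Egr1 at -0.61, each with an interval including 0. Junb (-0.24, -0.39 to -0.09) and Tnfaip3 (-0.49, -0.73 to -0.25) had intervals below 0 but missed the 1.5-fold limit. Immediate-early genes also respond to the handling of cells, whose part was not tested.

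Of 25 measured naive and quiescence genes, 2 were lower (Als2cl and Tob1) and none higher, a share of 8% that is near the 6.52% of all genes. The list's median log2 ratio was -0.02 beside -0.06 for all genes. Lef1 was at 0.13 (-0.02 to 0.29), Ccr7 at 0.06, Klf2 at 0.04 and Bach2, a repressor of effector genes, at 0.12, while Tcf7 was at 0.30 (0.04 to 0.57). Tob1, an antiproliferative gene, was at 75.9 and 45.2 CPM (-0.75, -1.49 to -0.01). Dapl1 itself was at 339 CPM (289 to 396) in +/+ and 227 CPM (193 to 266) in fl/fl, a log2 ratio of -0.58 (-0.90 to -0.25), just short of 1.5-fold. Cytotoxic CD8 T cells had -1.32 for Dapl1. In the 19 +/+ and 31 fl/fl cells without any UMI of Ccl5 or Nkg7 the log2 ratio of Dapl1 turned to 1.43. These held 0.684 and 1.61 Dapl1 UMIs per cell, and 1 of the +/+ cells held 14440 UMIs and none of Lef1. The direction of Dapl1 thus changed with the cytotoxic limit, on few and uneven cells.

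Cells just inside and just outside that limit are given once. In +/+ 27 cells had 2 UMIs of Ccl5 and Nkg7 and 20 cells outside had 3, with a Dapl1 UMI in 63.0% and 65.0% of them. In fl/fl these were 26 and 23 cells, with 42.3% and 52.2%. With so few cells on each side, a step at the limit was not detectable at this depth.

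Of 28 measured genes of the T cell receptor complex and its proximal signalling, 1 was lower (Cd6, a scavenger-receptor family coreceptor, at 105 and 56.8 CPM, -0.89, -1.53 to -0.26) and none higher, a share of 3.57% beside 6.52% of all genes. Their median log2 ratio was -0.08, with Lck at -0.08, Zap70 at -0.15, Lat at -0.11 and Themis at 0.22. Of 11 measured lineage factors only Myb was called, at 50.6 and 84.5 CPM (0.74, 0.03 to 1.49, and 2.07 in cells without any Ccl5 or Nkg7 UMI), with Runx3 at 0.15, Bcl11b at 0.08 and Tox at -0.27. The 14 measured genes of the H3K4 methyltransferase complexes and H3K27 demethylases gave no call, around a median of -0.29 beside -0.06 for all genes, and 11 of them lay below 0. Kmt2e (-0.43, -0.80 to -0.05) had an interval that excludes 0.

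The share of cytokine receptor and feedback genes called (4.76%), and that of survival and death genes (4.35%), was near the 6.52% of all genes. Of 21 measured cytokine receptor and feedback genes 1 was lower, Il2ra, while Il2rg was at -0.11, Ifngr1 at -0.12 and Socs1, a feedback inhibitor that interferon gamma induces, at 0.38 (-0.35 to 1.14). Of 23 survival and death genes 1 was lower, the death receptor gene Fas, at 59.0 and 32.1 CPM (-0.88, -1.76 to -0.02), and it turned to 1.94 in cells without any Ccl5 or Nkg7 UMI. Bcl2 was at 0.11 and Mcl1 at -0.06. Of 18 homing and adhesion genes Cxcr6, a chemokine receptor of tissue-resident T cells, was higher, with 3 and 19 UMIs in 3 and 14 cells (2.13, 0.37 to 4.53), and Itgb7 was lower (11.1% called). Of 14 glycolysis genes 1 was lower (7.14%), the glucose transporter gene Slc2a1, at 44.3 and 20.4 CPM (-1.12, -2.21 to -0.07). Both nuclear-retained RNAs measured, Malat1 (-0.04) and Neat1 (-0.09), were close to equal.

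The purinergic list holds genes of signalling by extracellular nucleotides and adenosine, and also genes placed there by their P2Y family name. It had 6 measured members, 1 higher and 1 lower (33.3%, beside 6.52% of all genes). P2ry10, a lysophospholipid receptor gene of the P2Y family, was at 97.0 and 156 CPM (0.69, 0.17 to 1.22), and its log2 ratio was 1.52 in cells without any UMI of Ccl5 or Nkg7. Adk (ENSMUSG00000039197, chromosome 14, 21052574 to 21448569, plus strand), the kinase that removes adenosine, was at 221 CPM (181 to 268) and 114 CPM (89.9 to 142), with a log2 ratio of -0.96 (-1.40 to -0.52). One +/+ cell held 23 of its 105 UMIs, and without the top cell of each library the ratio was -0.76. In cells without any UMI of Ccl5 or Nkg7 it was -2.00. Adk was at -0.78 in cytotoxic CD8 T cells, -0.37 in CD4 T cells without Treg markers, -1.68 in Ikzf2-high CD4 T cells and 0.36 in B cells.

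Other genes lay outside the lists and were chosen after their values were seen. Auts2, a regulator of neuronal development and Polycomb activity, was at 44.3 CPM (21 UMIs in 10 cells) in +/+ and 140 CPM (96 UMIs in 29 cells) in fl/fl (1.66, 0.97 to 2.42), and its log2 ratio was -0.01 in cytotoxic CD8 T cells and 1.5 in Ikzf2-high CD4 T cells. Plac8, a gene of myeloid and lymphoid cells, was at 232 and 442 CPM (0.93, 0.61 to 1.26). Plac8 was also higher in cytotoxic CD8 T cells (0.63), CD4 T cells without Treg markers (2.49) and Ikzf2-high CD4 T cells (3.10). Xrcc4, a DNA end-joining factor, and Vps54, a Golgi tethering factor, each had a log2 ratio of 1.02. Dusp5, a phosphatase of the ERK kinases, was at 126 and 62.7 CPM (-1.01, -1.61 to -0.42), and its log2 ratio was -0.08 in cells without any UMI of Ccl5 or Nkg7 and 0.22 in cytotoxic CD8 T cells. Slc15a2, a peptide transporter gene, was at 52.7 and 16 CPM (-1.72, -2.89 to -0.64), and between -1.60 and -2.51 in the other 4 groups.

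**Figure D5:**
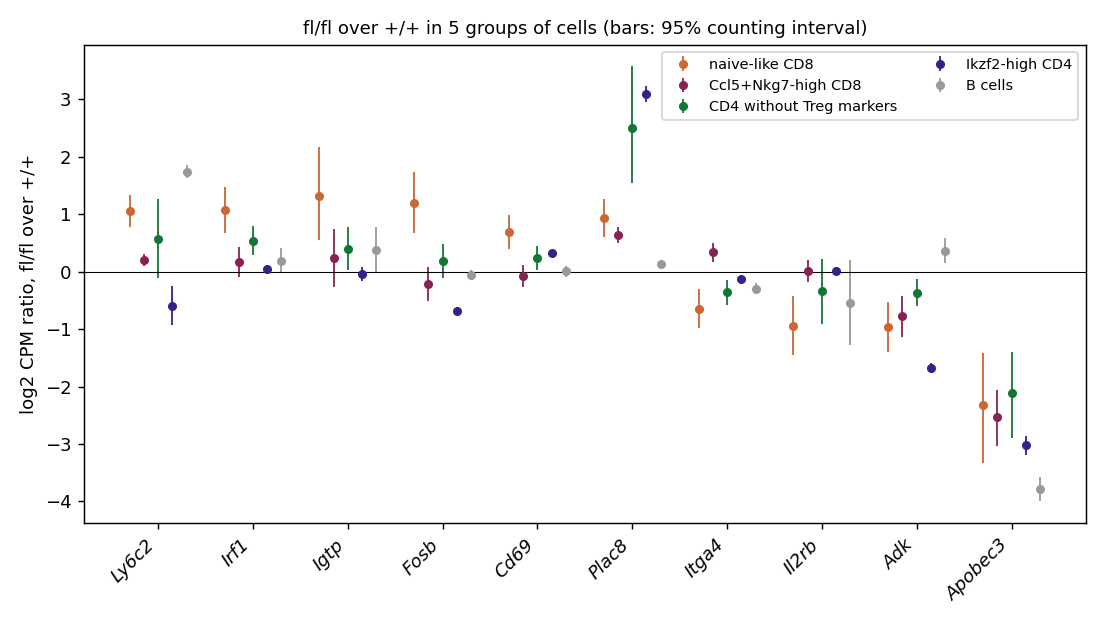
Log2 CPM ratio of fl/fl over +/+ (vertical) of 10 genes in naive-like CD8 T cells, cytotoxic CD8 T cells (labelled Ccl5+Nkg7-high), CD4 T cells without Treg markers, Ikzf2-high CD4 T cells and B cells, with 95% counting intervals as bars. Apobec3 lies below -2 in all 5 groups, whereas Irf1 lies at 1.07 in naive-like CD8 T cells and at 0.17 in cytotoxic ones.

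Side by side, Irf1 and Igtp, both higher in fl/fl naive-like CD8 T cells, had smaller ratios in cytotoxic CD8 T cells of the same libraries. Irf1 was at 0.17 (-0.09 to 0.43) there and Igtp at 0.24 (-0.26 to 0.75). In CD4 T cells without Treg markers they were at 0.54 (0.28 to 0.79) and 0.40 (0.03 to 0.78). Iigp1 was seen in 5.97% of thinned +/+ and 17.2% of thinned fl/fl naive-like cells, and in 2.21% and 7.63% of cytotoxic CD8 T cells. CD4 T cells without Treg markers gave 9.85% and 16.9%, and B cells 0% and 2.31%, so Iigp1 was the more often seen in fl/fl in these groups as well. Fosb was at -0.22 in cytotoxic CD8 T cells and 0.19 in CD4 T cells without Treg markers. The intervals of Irf1 in naive-like and cytotoxic CD8 T cells do not overlap, but the difference between the groups was not tested.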

How the data were processed

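Droplet libraries of RNA 3' ends from splenic cells sorted for CD4 and Foxp3 were used, 1 per genotype, each of pooled cells from 3 mice. The deposited values are raw UMI counts per gene and barcode for 31253 genes, not normalized, and the files held whole numbers only. Per the submitters' processing notes, fastp, Cell Ranger 7.1.0 and Seurat 4.1.1 were used with mm10 and GRCm38. How the deposited barcodes were chosen is not given in the sources used here.

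The members and the gene lists were chosen with earlier results of these data known. Counts were summed over the cells of each library and scaled to CPM. Each log2 CPM ratio has a 95% exact conditional binomial interval, single sums have an exact Poisson interval and shares an exact binomial (Clopper-Pearson) one. Genes reaching 20 CPM in 1 library or both were compared, and a gene was called where its ratio was 1.5 or more upward or downward and its interval left out 1. Thinning drew 2500 UMIs per cell. No doublets were removed, and leaving out the 6% of barcodes with the highest Scrublet-type score was an alternative. Depth was 3599 to 42410 UMIs per cell.

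Named genes were the 12 highest and 12 lowest called ratios that kept their direction in thinned cells and under median scaling, without receptor, immunoglobulin, mitochondrial, ribosomal or sex-linked genes or models without a proper symbol. To them were added up to 3 called genes each way from each of 15 lists, the 10 highest and 10 lowest between groups of cells, the 10 of widest spread, and Cd8a, Cd8b1, Dapl1, Kmt2d, P2rx7 and Foxp3. Other genes were named after their values were seen. Ly6a, Ifi206 and Slfn5 were among these. A few genes are not reported here. Positions are from GENCODE and promoters from RefSeq, both on GRCm38. Alternatives changed the limits of the rule, the mitochondrial limit, the floor, the ratio, the interval, the scaling and the depth, or left out cells with a Cd4 UMI. They also replaced summed UMIs by the mean over cells. One, without cells of high cell cycle counts, was added after the data were seen. Python 3.11.15, numpy 2.4.6, scipy 1.17.1, pandas 2.3.3 and matplotlib 3.10.9 were used.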

Additional observations from a re-analysis of the deposited data

Results flagged for a closer look

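Some genes called in naive-like CD8 T cells had a ratio of at least 1.5-fold in the opposite direction, with an interval excluding 0, in another group of cells from the same libraries. None of these differences between groups was tested, and several rest on 1 fl/fl cell in the naive-like group. RNA of other cells was also uneven between libraries in the comparison groups. Neutrophil genes summed to 2184 CPM in +/+ and 364 in fl/fl Ikzf2-high CD4 T cells, while erythroid or platelet genes went from 4.57 to 60.7 CPM. In CD4 T cells without Treg markers, neutrophil genes summed to 1875 and 17.3 CPM. The part of such RNA in the ratios below was not tested. Fosb, at 1.19 in naive-like CD8 T cells, was at -0.68 in Ikzf2-high CD4 T cells. Ly6c2, at 1.05, was at -0.59 in the same CD4 T cells, where its level was 12.5 and 8.32 CPM. S100a4, at 2.47 with 23 of 24 fl/fl UMIs in 1 cell, was at -1.76 in Ikzf2-high CD4 T cells and -2.00 in B cells. Ctla2a, at 1.11, was at -2.62 in Ikzf2-high CD4 T cells. Alcam, with no +/+ UMI in naive-like cells, was at -1.0 in CD4 T cells without Treg markers and -0.92 in Ikzf2-high ones.

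The others are genes of dividing cells, higher in fl/fl naive-like CD8 T cells. In cytotoxic CD8 T cells H1f5 was at -0.79, Hist1h2ap at -0.66, H2ac8 at -0.60 and Uhrf1 at -1.0. In CD4 T cells without Treg markers Birc5 was at -1.73, H1f5 at -3.79, H2ac8 at -1.81, Rrm2 at -3.97 and Stmn1 at -1.04. There too most of these rest on 1 cell, since 1 +/+ cell held all 17 UMIs of Rrm2, and all 18 of Birc5, 43 of 45 of H1f5 and 16 of 19 of H2ac8 each lay in a single +/+ cell.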

How the results depend on the processing

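No paired analysis was possible because each genotype has 1 library and no test was made. The share of naive-like CD8 T cells was 0.244% in +/+ and 0.359% in fl/fl when no UMI of Ccl5 or Nkg7 was allowed, and 1.09% in +/+ with the rule on thinned cells. Numbers of called genes were 87 higher and 144 lower with a floor of 50 CPM, 101 and 137 with a ratio of at least 2, and 557 and 835 with the ratio alone, and 86 were higher in thinned cells. The alternatives not mentioned here moved neither the shares beyond their counting intervals nor the counts beyond 1.5 times. Among single genes, log2 ratios changed sign with no Ccl5 or Nkg7 UMI allowed (19 and 31 cells) for Dapl1 (1.43), Fas (1.94), Tob1 (0.26), Dpp3 (0.068), Hmgb2 (-0.47), Stmn1 (-2.39), Pclaf (-1.52) and Phyh (-0.52). They changed sign without the 2 cells of highest cell cycle counts for Pclaf (-0.48), Stmn1 (-0.20) and S100a6 (0.00043), without cells holding a Cd4 UMI for S100a4 (-2.22), and in thinned cells for Birc5 (-0.56). With 67 and 99 cells, depth limits most genes: under 25 UMIs 13.0% of genes were called, and 1.78% at 200 or more. A single library per genotype leaves differences between pools, sorts and genotypes that cannot be told apart.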
